A study of Mus musculus with 6 samples.

Results

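Transaminases and the enzymes that make and use glutamate and glutamine were examined in primary mouse hepatocytes depleted of retinol saturase (RetSat). The set holds 10 genes: the alanine transaminases Gpt and Gpt2, the aspartate transaminases Got1 and Got2, glutamate dehydrogenase (Glud1), liver glutaminase (Gls2), glutamine synthetase (Glul), ornithine aminotransferase (Oat), alanine-glyoxylate aminotransferase (Agxt) and serine dehydratase (Sds). Members were found by gene symbol, and a gene with several probe sets was read from its brightest one. In this way 8 of the 10 members were measured, among 19938 genes in all. Gls2 and Sds had no probe set whose annotation named their symbol alone, and were not analysed here. Probe sets that name several genes were not used.

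Hepatocytes of a male wild-type C57BL/6J mouse aged 10 weeks were transfected overnight with control siRNA (siControl) or siRNA against RetSat (siRetSat). Both groups were grown in medium with 25 mM glucose and harvested 48 h after the medium change of the next morning. There were 3 Affymetrix Mouse Gene 1.0 ST arrays per group, each from an independent transfection. All p-values therefore measure the spread between cultures of cells from 1 mouse, and a second siRNA against RetSat was not analysed here. Values are log2 intensities, the deposited brightness of a probe set on a doubling scale, and their precision is limited by the number of arrays.

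Transaminases pass the amino group of an amino acid to a 2-oxo acid, with vitamin B6 as the cofactor, and in liver most of these groups end up on glutamate. Glutamate dehydrogenase then frees the group as ammonia for the urea cycle, or fixes ammonia in the reverse direction. Glutaminase near the portal vein releases ammonia from glutamine, and glutamine synthetase in the hepatocytes around the central vein captures what has escaped. Alanine transaminase links this traffic to pyruvate and gluconeogenesis, and its activity in blood is a common sign of liver injury.

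Retsat itself was at 6.80, 7.04 and 7.01 in siControl and at 4.62, 4.83 and 4.81 in siRetSat, or 21.8% of the control signal. Albumin (Alb), a hepatocyte marker, lay between 12.90 and 13.10 on all 6 arrays. It is 1 of 10 hepatocyte markers measured, of which 6 had a log2 fold change below 0, with a list median of -0.12. Arrays of the same number deviated from their group means with correlations of 0.55, 0.04 and 0.54 for the numbers 1, 2 and 3, across genes, which are not independent replicates. The calls below are therefore also given without both arrays of each number.

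The threshold was an adjusted p of 0.05 from limma with Benjamini-Hochberg adjustment over all genes. Of the 8 measured members, Gpt passed as higher in siRetSat, Glud1 passed as lower, and 6 fell short. Across all genes 3.56% were called at this threshold, 1.91% higher and 1.66% lower. The study's cutoffs, an unadjusted p below 0.05 from the methods' t-test with a 1.25-fold change or more, again took Gpt as higher and Glud1 as lower, beside 7.15% of all genes (3.60% higher and 3.55% lower). With the unadjusted p of limma in place of that test they took the same members, beside 9.05% of all genes (4.47% higher and 4.58% lower). After adjustment over all genes, the methods' t-test passed neither Gpt (adjusted p = 0.0938) nor Glud1 (adjusted p = 0.0585). The median log2 fold change of the 8 members was 0.04, and that of all genes was 0.00333. Of the 8, 5 were above 0 and 3 below, but 6 of these signs belong to members that did not pass. Gpt and Glud1, which passed, went in opposite directions.

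Gpt, the cytosolic alanine transaminase, changed most of the 8. Its log2 intensity was 7.37, 7.07 and 7.29 in siControl and 7.89, 7.91 and 7.82 in siRetSat. Every siRetSat array lay above every siControl array, as for 9.33% of all genes (the groups of 19.5% did not overlap in one direction or the other). The means were 7.24 ± 0.16 and 7.87 ± 0.047 (SD, n = 3 each), so that Gpt rose by 0.63 on the log2 scale, or 1.55-fold (limma, standard error 0.102, adjusted p = 0.0164). Gpt passed without both arrays numbered 1 (log2 fold change of 0.69, adjusted p = 0.0241), but not without both numbered 2 (0.53, adjusted p = 0.389) or both numbered 3 (0.68, adjusted p = 0.147). Of single arrays, it did not pass without siControl 2 (adjusted p = 0.0762), siControl 3 (adjusted p = 0.0567) or siRetSat 2 (adjusted p = 0.0904), where its log2 fold changes were 0.54, 0.65 and 0.61.

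Gpt2, the mitochondrial alanine transaminase, did not pass the test. It was at 9.49, 9.53 and 9.48 in siControl and at 9.42, 9.63 and 9.47 in siRetSat, and the siRetSat arrays spanned the siControl arrays. Its log2 fold change was 0.00667, with a 95% confidence interval from -0.20 to 0.21. The difference between the isoenzymes was read within each array, as the Gpt value minus the Gpt2 value. It went from -2.26 ± 0.18 to -1.63 ± 0.096 (SD, n = 3 each), a shift of 0.62, and the groups did not overlap. The two-sided exact permutation test gave p = 0.1, the smallest that 3 against 3 arrays allow, and an adjusted p = 0.3 over the 3 pairs of members compared.

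**Figure D1:**
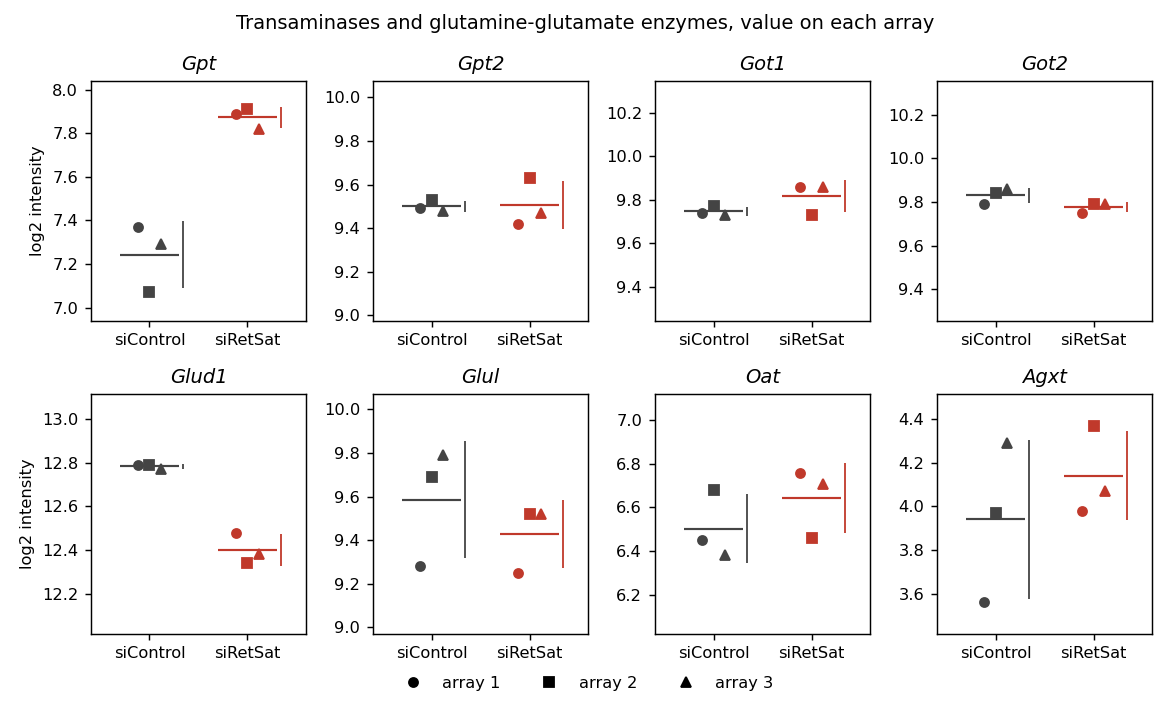
Log2 intensity (y axis) of the 8 measured members on each of 6 arrays, with the symbol giving the array number, horizontal lines the group means and vertical lines their SD above and below (n = 3). Every panel spans the same log2 range, and the groups are apart for Gpt (7.24 against 7.87) and Glud1 (12.78 against 12.40) and overlap or touch in the others.

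Glud1, the mitochondrial enzyme that interconverts glutamate with 2-oxoglutarate and ammonia, was the member that fell. It was at 12.79, 12.79 and 12.77 in siControl and at 12.48, 12.34 and 12.38 in siRetSat. The control arrays lay within 0.02 of each other, and all siRetSat arrays lay below them, as for 10.1% of all genes. The means were 12.78 ± 0.012 and 12.40 ± 0.072 (SD, n = 3 each), a difference of -0.38 on the log2 scale (limma, standard error 0.0833, adjusted p = 0.0477). In siRetSat 76.7% of the control signal remained. The mean of Glud1 over the 6 arrays, 12.59, lay above that of 99.91% of all genes. Whether signal this bright stays in proportion to the amount of RNA was not tested. The call of Glud1 lay near the threshold, at rank 693 of all genes by p, of which 710 passed. Glud1 passed without both arrays numbered 1 (log2 fold change of -0.42, adjusted p = 0.0474), but not without both numbered 2 (-0.35, adjusted p = 0.658) or both numbered 3 (-0.38, adjusted p = 0.373). When single arrays were omitted it passed in 1 of 6 fits, that without siRetSat 1 (adjusted p = 0.0463). The adjusted p was 0.102, 0.196 and 0.148 without siControl 1, 2 and 3, and 0.210 and 0.154 without siRetSat 2 and 3, while the log2 fold change stayed between -0.42 and -0.35. As for Gpt, the fits without both arrays numbered 2 or 3 passed only 15 and 111 of all genes.

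**Figure D2:**
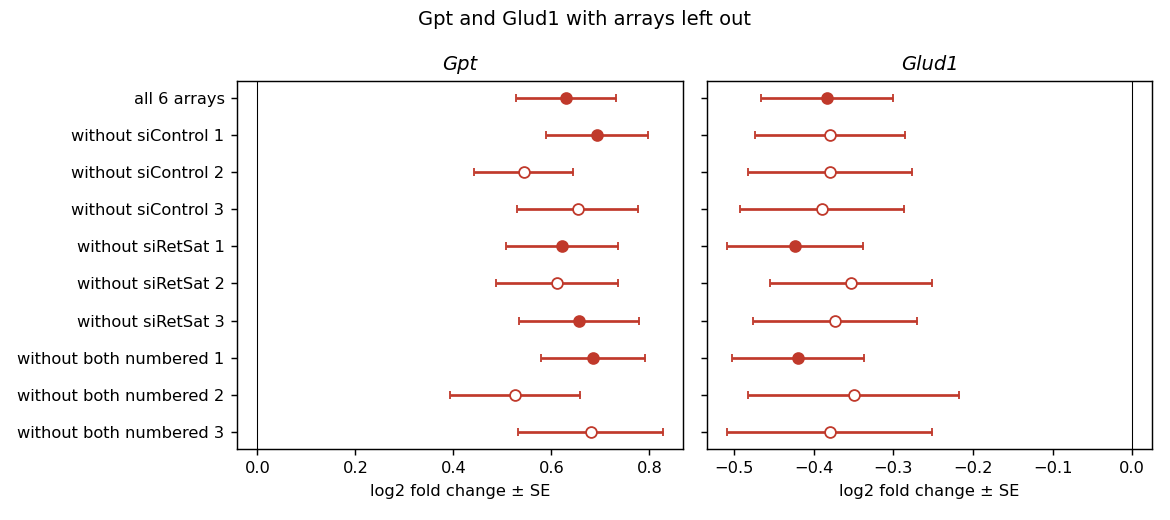
Log2 fold change of siRetSat minus siControl (x axis) with its standard error for Gpt and Glud1, fitted on all 6 arrays, without each single array and without both arrays of a number. Filled points passed an adjusted p of 0.05 from limma and open points did not, and no estimate crosses 0, with Gpt between 0.53 and 0.69 and Glud1 between -0.42 and -0.35.

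The aspartate transaminases, which serve the malate-aspartate shuttle, varied least of the members, within 0.13 for Got1 and 0.11 for Got2 over the 6 arrays. Cytosolic Got1 was at 9.74, 9.77 and 9.73 in siControl and at 9.86, 9.73 and 9.86 in siRetSat. Mitochondrial Got2 was at 9.79, 9.84 and 9.86 in siControl and at 9.75, 9.79 and 9.79 in siRetSat. The groups overlapped for Got1 and met at a shared value for Got2. The log2 fold change was 0.07 for Got1 (95% confidence interval -0.12 to 0.26) and -0.05 for Got2 (-0.24 to 0.13), and neither interval reached the 0.63 of Gpt. The within-array difference of Got1 minus Got2 shifted by 0.12, and its groups overlapped (two-sided exact permutation test, p = 0.2, adjusted p = 0.3).

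Glul and Oat, which are both expressed mainly by the hepatocytes around the central vein, did not pass the test. Glul was at 9.28, 9.69 and 9.79 in siControl and at 9.25, 9.52 and 9.52 in siRetSat. In both groups the array numbered 1 was the lowest, by 0.46 and 0.27 below the mean of the other arrays of its group. The log2 fold change of Glul was -0.16 (95% confidence interval -0.50 to 0.18). Oat, which turns ornithine into a precursor of glutamate and proline, was at 6.45, 6.68 and 6.38 in siControl and at 6.76, 6.46 and 6.71 in siRetSat. Its groups overlapped, with a log2 fold change of 0.14 (95% confidence interval -0.13 to 0.41). The within-array difference of Oat minus Glul shifted by 0.30 (two-sided exact permutation test, p = 0.4, adjusted p = 0.4). Without siControl 3 the shift was 0.13, without siRetSat 1 it was 0.15, and without both arrays numbered 2 or both numbered 3 it was 0.47 and 0.145.

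Glul and Got2 each had a second, dimmer probe set. The dimmer probe set of Glul was at 8.15, 8.24 and 8.22 in siControl and at 8.0, 8.17 and 8.06 in siRetSat. It spread less between arrays than the brighter one, with an SD of 0.047 against 0.27 in siControl. It differed by -0.13 between the groups (adjusted p = 0.749 by limma over all probe sets). With the dimmer probe set, the within-array difference of Oat minus Glul shifted by 0.27 (two-sided exact permutation test, p = 0.3). The brighter Glul probe set stands among identifiers of other chromosomes: of the 10 named probe sets nearest to it by number, 0 belong to genes on the chromosome of Glul, against 10 of 10 for the dimmer one. Got2 has the reverse order, with 10 of 10 for the brighter and 0 of 10 for the dimmer probe set. The Got2 probe sets moved alike, at -0.05 each. Whether a probe set also reads a related sequence elsewhere in the genome was not tested.

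**Figure D3:**
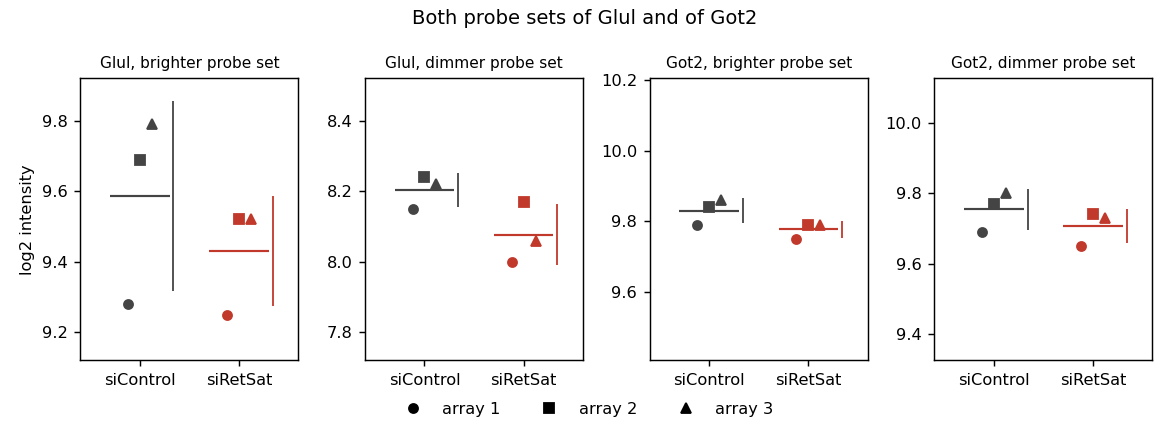
Log2 intensity (y axis) on each of 6 arrays for both probe sets of Glul and both of Got2, with symbols for the array number, horizontal lines for group means and vertical lines for the SD above and below (n = 3). The brighter Glul probe set has an SD of 0.27 in siControl and the dimmer one of 0.047, and all 4 have siRetSat means below their siControl means without passing the test.

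Agxt, the peroxisomal enzyme that detoxifies glyoxylate, was dim in these cultures. It was at 3.56, 3.97 and 4.29 in siControl and at 3.98, 4.37 and 4.07 in siRetSat, with a mean under the 40th percentile of all genes, 4.33. Its groups overlapped, with a log2 fold change of 0.20 (95% confidence interval -0.23 to 0.63), so that a rise of nearly the size seen for Gpt lay within the interval. Otc, an enzyme of the urea cycle, was likewise dim, at 2.95 to 3.54 over the 6 arrays.

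The genes with the most similar profiles over the 6 arrays were found for each called member. The likeness was the root mean square difference of log2 values after each gene was centred on its own mean. Nearest to Gpt were Slpi, a secreted protease inhibitor, at 0.031, Slc38a3, a glutamine carrier of the hepatocyte membrane, at 0.044, and the interferon-induced gene Bst2 at 0.059. Nearest to Glud1 were Rars, the arginyl-tRNA synthetase, at 0.029, the kinase Clk3 at 0.031 and the glucosylceramidase Gba2 at 0.031. In the order named, their log2 fold changes were 0.62, 0.70 and 0.60 beside 0.63 for Gpt, and -0.38, -0.36 and -0.41 beside -0.38 for Glud1. The like differences between the groups follow from the choice of genes, since both were read from the same 6 arrays. Shared regulation was not tested.

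In the pathways around the members, 13 of 86 measured genes of 6 lists passed the test, 6 higher and 7 lower, or 15.1% against 3.56% of all genes. The median log2 fold change over these 86 genes was -0.03. The 3.56% counts dim genes too, and in a separate fit without genes under the 40th percentile 964 of 11965 passed. The listed genes were not counted in that fit, so their share cannot be set beside it. The lists were chosen with earlier results of these data known. Among 12 other transaminases 1 fell, none rose and 11 did not pass (list median of -0.09). The gene that fell was Tat, the tyrosine aminotransferase, which went from 7.04, 7.61 and 7.52 to 6.57, 6.65 and 6.80, a difference of -0.72 on the log2 scale (limma, adjusted p = 0.0452). Psat1, which makes serine, was at -0.25 and the mitochondrial branched-chain transaminase Bcat2 at 0.15, and neither passed.

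Of 26 measured genes among other enzymes of glutamine and glutamate, 2 rose, 3 fell and 21 did not pass (list median of -0.03). Gfpt1, which spends glutamine on hexosamine synthesis, went from 8.10, 8.15 and 8.18 to 7.39, 7.49 and 7.50, a difference of -0.68 (limma, adjusted p = 0.00471). Asns, which spends glutamine on asparagine, fell by 0.46 on the log2 scale, and Aldh18a1, which starts proline synthesis from glutamate, fell by 0.48. Ftcd, which ends histidine breakdown at glutamate, rose by 0.53. The remaining call, Ctps, which spends glutamine on CTP, rose by 0.43 and was named after its value was seen.

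Among 15 enzymes of serine, glycine and glyoxylate, 1 rose, 2 fell and 12 did not pass (list median of -0.04). The glycine decarboxylase Gldc fell by 0.75 and the mitochondrial serine hydroxymethyltransferase Shmt2 fell by 0.59, whereas Hao1, which makes the glyoxylate that Agxt consumes, rose by 0.66. Of 8 genes of the malate-aspartate shuttle and pyruvate handling 1 rose, Pcx (pyruvate carboxylase), at 0.55, and none fell (list median of 0.08). Of 17 carriers of alanine, glutamine and glutamate 1 rose and none fell (list median of -0.05). The carrier that rose was Slc38a3, from 7.68, 7.41 and 7.58 to 8.22, 8.32 and 8.22, a difference of 0.70 (limma, adjusted p = 0.00897). In the urea cycle and ammonia list, with 8 genes measured and a median of 0.015, 1 gene rose and 1 fell. The ammonia channel Rhbg rose by 0.86 (adjusted p = 0.00818 from limma), and Cps1, which takes ammonia into the urea cycle, fell by 0.82 (adjusted p = 0.0291).

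**Figure D4:**
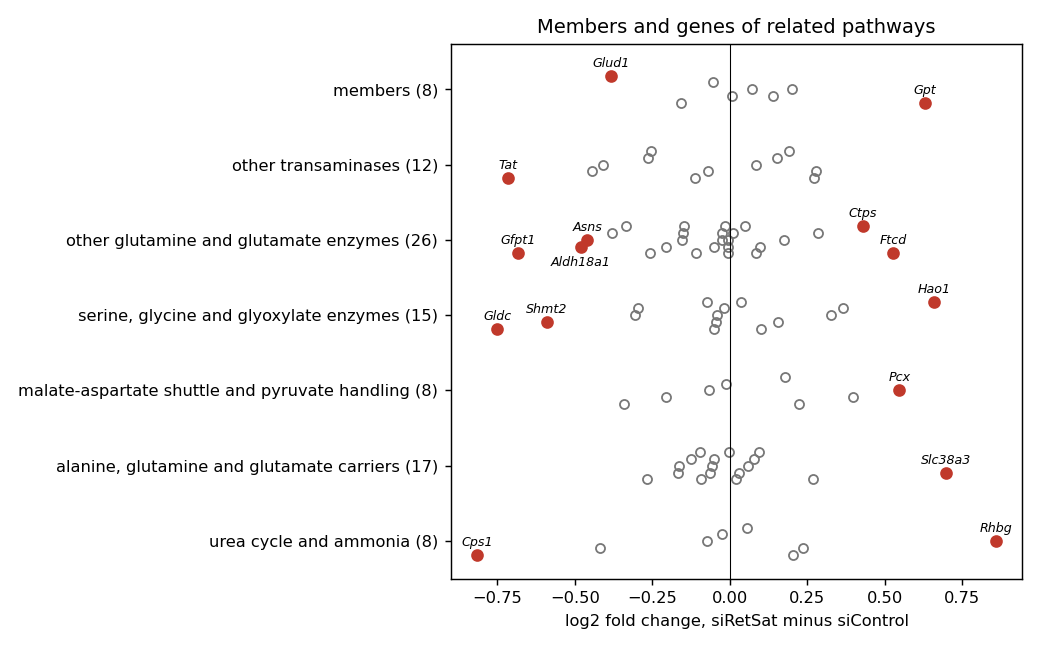
Log2 fold change of siRetSat minus siControl (x axis) by gene, a point for each gene, for the 8 members and 6 lists of related genes with the number measured in parentheses. Filled, named points passed an adjusted p of 0.05 from limma and open points did not, with Cps1 lowest at -0.82 and Rhbg highest at 0.86, and calls lie on both sides of 0 in the members and in 3 of the 6 lists.

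By position in the liver lobule, 2 of 14 measured periportal genes rose and 3 fell (list median of -0.04), and 2 of 20 pericentral genes rose while none fell (list median of 0.015). Pigr rose by 0.55 in the first list, where Cdh1, G6pc and Cps1 had log2 fold changes of -0.58, -0.53 and -0.82. G6pc averaged 4.22 in siRetSat, below the 40th percentile, which limits how well its fall can be sized. Cyp2f2 rose by 0.48 and was named after its value was seen. Lect2, at 0.95, and Rhbg were the pericentral genes that rose, and the pericentral members Glul and Oat did not pass. Among 16 regulators of amino acid breakdown genes none passed by limma or by the methods' t-test after adjustment, and 2 had an unadjusted p under 0.05 from limma. Atf4 had the smallest p of these, at -0.28 (limma, adjusted p = 0.199). At least 9.05% of all genes had an unadjusted p under 0.05 from limma, the share that also changed 1.25-fold or more.

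Gfpt1 and Gldc passed whichever of the 6 arrays was omitted. The other 16 of the 18 genes called in these 8 lists lost the call both without siControl 2 and without siRetSat 2. Their highest adjusted p over the 6 fits lay between 0.0597 for Rhbg and 0.216 for Hao1. All 18 missed the threshold without both arrays numbered 2, and 17 of them without both numbered 3, where Lect2 passed. Of all genes, only 15 and 111 passed in these 2 fits, against 710 on all 6 arrays. Without siControl 2 and without siRetSat 2, 207 and 226 of all genes passed. Of the 18, 4 did not pass without both arrays numbered 1, namely Aldh18a1, Hao1, Cps1 and Cyp2f2 (adjusted p = 0.0707, 0.0655, 0.0611 and 0.102 from limma).

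Markers of the cell types that a hepatocyte culture can hold were read beside these calls. Of 10 hepatocyte markers 1 fell, Ahsg (fetuin-A) at -0.52, and none rose. In that list 5 had an unadjusted p under 0.05 from limma. They were Ahsg and, short of the adjusted threshold, Fabp1 at -0.99, Asgr1 at -0.40, Apob at -0.36 and Cyp3a11 at 0.64. The groups did not overlap for these 5 and for Hpx, at -0.14, and overlapped for the rest of the list. Over all genes, the groups of 19.5% did not overlap. The counts at this p in each marker list stand beside at least 9.05% of all genes, the share that also changed 1.25-fold or more. The mean over the hepatocyte list was 9.51 to 9.78 in siControl and 9.41 to 9.54 in siRetSat. Of 14 macrophage markers 1 rose, Cd14 at 0.59, and none fell, with 2 at an unadjusted p under 0.05 and list means of 4.55 to 4.66 and 4.66 to 4.77. Cd14 went from 7.74, 7.60 and 7.89 to 8.36, 8.25 and 8.39, and Cd68 from 11.15, 11.24 and 11.03 to 11.54, 11.49 and 11.59 (adjusted p = 0.0563 from limma), without overlap in either. Of the 14, 10 averaged under the 40th percentile of all genes, among them Adgre1 and Vsig4, at 2.90 to 3.40. Of 12 markers of stellate cells and fibroblasts 1 fell, Acta2 at -2.40, with 1 at an unadjusted p under 0.05 and list means of 4.76 to 4.97 and 4.60 to 4.97. None of 11 endothelial markers passed by limma or the methods' t-test, with 2 at an unadjusted p under 0.05 and Emcn at -0.61 (adjusted p = 0.184 from limma), and 1 of 5 bile duct markers rose, Sox9 at 0.45, with 2 at an unadjusted p under 0.05. Fewer cells of a type and less RNA per cell cannot be told apart in such cultures, and the part of these markers in the changes of Gpt and Glud1 was not tested.

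Promoters of 7 members, from 250 bases before to 50 after the start, were searched on both strands for CACGTG (the E-box), TGACGTCA (the cAMP response element) and TGATGCAA (an ATF4 element). The sequences are those of RefSeq for GRCm38.p6, where Gpt, Gls2 and Sds were not matched. The E-box was held by 0 of these 7 promoters and 7.15% of all 32851 promoters, and the cAMP response element by 0 and 1.79%. The ATF4 element was held by 1 member and 0.895% of all promoters. That member was Got1, and its match on the reverse strand, in capitals, is shown within chr19:43524680-43524727 on the minus strand as the single match found.
Got1: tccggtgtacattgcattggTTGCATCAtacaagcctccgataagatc
The match is a description of the letters, and Got1 did not pass the test.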

How the data were processed

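RNA was hybridised to 6 Affymetrix Mouse Gene 1.0 ST arrays. As deposited, the values are log2 intensities of 35556 probe sets, made by the authors with RMA and Partek 6.6 according to the submitters' processing notes, and no source used here gives their annotation version or filters. Probe sets with 1 symbol in GEO's platform annotation (21789) were kept, with symbols updated through RefSeq's GRCm38.p6 table (21698 matched), and 19938 genes, each read from its brightest probe set, were tested by limma 3.58.1 in R 4.3.3 (siRetSat minus siControl, no covariates). This fit was first tested on simulated data with known changes. The dim cut was the 40th percentile, 4.33. Members and lists were chosen with earlier results of these data known. Named were all members, Retsat, up to 4 called genes with the smallest p per list or else the smallest p, and the 3 nearest profiles. Psat1, Bcat2, Ctps, Cyp2f2, Otc, Alb, Fabp1, Asgr1, Apob, Cyp3a11, Hpx, Cd68, Adgre1 and Vsig4 were named after their values were seen. Isoenzyme pairs were compared by exact permutation over arrays. Alternatives were the methods' t-test, other fits, normalizations and probe set choices, and omitted arrays; the dimmer probe sets were added after seeing the data. Protein sequences and coordinates of probe sets were not used here. Tables and plots used Python 3.11.15, pandas 2.3.3 and matplotlib 3.10.9.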

Additional observations from a re-analysis of the deposited data

How the results depend on the processing

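Gpt kept a positive and Glud1 a negative log2 fold change in all 19 alternatives each, between 0.53 and 0.74 and between -0.43 and -0.35, and passed in 11 and 8 of them. The 2 called members became 0 with the methods' t-test (both at an unadjusted p under 0.05) and over all probe sets, and 1 with a second quantile normalization (Gpt), median centring (Gpt) or background subtraction (Glud1), and lay between 0 and 2 when arrays were left out. The 710 called genes became 196 with the methods' t-test, 1078 with a variance trend, 342 with median centring, 445 with background subtraction, 329 over all probe sets and 2905 with array weights, and lay between 15 (both numbered 2 omitted) and 822 (both numbered 1 omitted) when arrays were left out. The cause was not tested. With the replicate number as a block 1541 genes were called and both members kept their call (adjusted p = 0.00787 for Gpt and 0.0260 for Glud1 from limma). The numbers are not known to pair the cultures, and a pairing was not tested. Deviations of same-numbered arrays correlated at 0.55, 0.04 and 0.54. Array medians went together by number: 4.45 beside 4.5 for number 1, 4.36 on both arrays numbered 2 and 4.29 on both numbered 3. The blocked shifts of the isoenzyme pairs had exact p-values of 0.25 to 0.5, which do not bear on the pairing. Gpt2 changed sign, at -0.01 with median centring, -0.00333 without siControl 3, -0.055 without siRetSat 2 and -0.04 without the pair numbered 2, and Oat did so at -0.069 with array weights. Agxt had no value without dim genes or, at the floor of 16, after background subtraction. The other members and the count at the study's cutoffs kept their direction and side of the threshold. The pair shifts kept their direction, but their exact tests could not fall below 0.1 with all arrays, 0.25 with the block or 0.333 with 2 against 2 arrays, so their side of the threshold was fixed by the design.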
